A study of Mus musculus with 3 samples.

Results

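The insulin-like growth factor 1 (IGF1) axis and its binding proteins were examined in the mouse mandibular condyle as 9 genes, *Igf1*, *Igf1r*, *Igf2r* and *Igfbp2* to *Igfbp7*, chosen by symbol from the 26970 genes of the deposited expression table. RNA sequencing was done on condyles of 4-month-old mice on the C57BL/6 background, dissected with cartilage and subchondral bone still joined. The wild type (WT) carried both *Dspp* alleles, the *Dspp*+/- mice lacked 1 allele in every cell and the *Dspp*-/- mice lacked both, with 1 library per genotype. Tissue of 3 animals was pooled for WT and for *Dspp*+/-, while the number of animals behind the *Dspp*-/- library is not given in the sources used here. With 1 library per genotype there was no replicate to test with, so each difference is one between single libraries. Triplicates are mentioned in the library description, whereas the table holds a single value per gene and genotype.

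IGF1 is a small secreted hormone that is made in the liver under growth hormone and also locally by bone, cartilage and fibrous cells, in which it promotes proliferation, survival and matrix synthesis. It acts through the tyrosine kinase receptor IGF1R, whereas IGF2R mainly clears IGF2 and sorts lysosomal enzymes. The IGF binding proteins hold IGFs in the extracellular space, lengthen their life and limit or direct their access to the receptor, and proteases that cut the binding proteins set the ligand free.

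Values are fragments per kilobase of exon and per unit of library size (FPKM), so levels of different genes can be compared per length. The depth recovered from the values was between 20241575 and 23613621 fragments, and the intervals given are exact 95% intervals from the recovered fragments, which cover counting error only. The mitochondrial share of summed FPKM was 25% in the WT library, 36.9% in *Dspp*+/- and 37.3% in *Dspp*-/-, so levels were also compared after 5 other scalings. *Xist*, the RNA of the inactive X chromosome, was at 0.00551 FPKM in the WT library, 28.5 in *Dspp*+/- and 26.5 in *Dspp*-/-, so sex cannot be told apart from genotype here. The row of *Dspp* was not analysed here, so the genotypes were not checked against it. Of the tissue's defining markers, 10 of 10 osteoblast genes and 9 of 10 chondrocyte genes averaged 1 FPKM or more. In bulk tissue, fewer cells of a type and less RNA per cell cannot be told apart.

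The members spanned a wide range of levels, and 8 of 9 averaged 1 FPKM or more over the 3 libraries. *Igfbp7*, a divergent family member with low affinity for IGFs that is abundant in vessels and connective tissue, was the highest, with 334 FPKM in the WT library, 211 in *Dspp*+/- and 226 in *Dspp*-/-. In WT it stood above 99.4% of the 13026 genes that averaged 1 FPKM or more. *Igfbp5*, the binding protein stored in bone matrix, followed with 141, 118 and 150 FPKM, and *Igfbp6*, which prefers IGF2 over IGF1, had 124, 84.8 and 61.8 FPKM in the same order. Next came *Igfbp4*, an inhibitory binding protein, at 58.8, 51.6 and 50.9 FPKM. *Igfbp3*, the main carrier of IGFs in serum, had 38.9, 24.1 and 28.6 FPKM.

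Receptors and ligand were below the 5 abundant binding proteins in every library. *Igf2r* had 22.1 FPKM in the WT library, 19.4 in *Dspp*+/- and 19.9 in *Dspp*-/-. *Igf1* had 6.96, 4.61 and 9.11 FPKM, from 1395, 1079 and 2007 fragments. *Igf1r* had 5.81, 5.38 and 5.98 FPKM. *Igfbp2*, an abundant binding protein of fetal tissues and of adult serum, was close to the limit of detection, with 8 fragments (0.214 FPKM) in the WT library, 5 (0.115 FPKM) in *Dspp*+/- and 7 (0.170 FPKM) in *Dspp*-/-. The order of the 9 levels was the same in the 3 libraries except for *Igf1* and *Igf1r*, which changed places in *Dspp*+/-. Their levels were close there, at 4.61 and 5.38 FPKM.

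**Figure D1:**
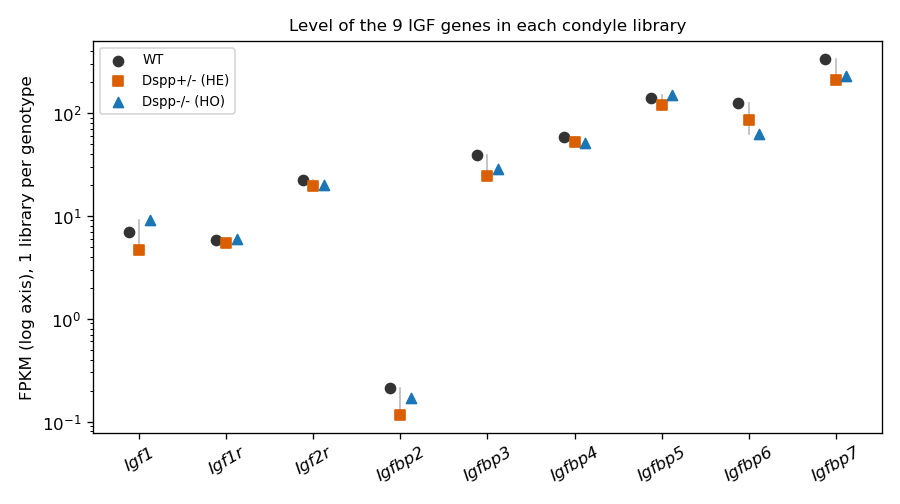
FPKM of the 9 genes (log axis) in the WT, *Dspp*+/- and *Dspp*-/- libraries, 1 point per library, with a grey line from the lowest to the highest library. *Igfbp7* was highest in every library and *Igfbp2* lowest, and *Igf1* and *Igfbp6* had the widest spread among the 8 genes above 1 FPKM.

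Positions are those of the deposited table, whose build is not named by the table and is not GRCm38, since the start and end of only 589 genes match GENCODE M21. *Igf1* lies on chromosome 10 from 87694127 to 87772904, *Igf1r* on chromosome 7 from 67602575 to 67883416 and *Igf2r* on chromosome 17 from 12901293 to 12988551. *Igfbp2* (chromosome 1 from 72863662 to 72891633, plus strand) and *Igfbp5* (72897091 to 72914043, minus strand) are neighbours that face each other across 5457 bases. These neighbours differed greatly in level, as *Igfbp5* had 17120 fragments in WT and *Igfbp2* had 8. *Igfbp3* (7156086 to 7163923) and *Igfbp4* (98932070 to 98945218) lie far apart on chromosome 11. *Igfbp6* lies on chromosome 15 from 102052797 to 102057946 and *Igfbp7* on chromosome 5 from 77497087 to 77555888. In GENCODE M21, 85 bases (7.03%) of the exons of *Igfbp7* overlap *Polr2b* on the opposite strand, where reads cannot be assigned to a gene without strand. Exons of the other 8 members overlap no exon of another gene there.

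The sequence upstream of 4 binding protein genes is shown because *Igfbp3*, *Igfbp6* and *Igfbp7* were the binding proteins that were lower in both mutant libraries by the largest folds (*Igfbp2* aside), and *Igfbp4* is shown beside them as a gene with smaller differences. Each is the 250 bases before the RefSeq start on the gene's own strand in GRCm38.p6, and none overlaps an exon of GENCODE M21. Capitals mark a TATAAA motif or a GC box, GGGCGG, searched on both strands.
Igfbp3 (chr11:7213924-7214173, minus strand): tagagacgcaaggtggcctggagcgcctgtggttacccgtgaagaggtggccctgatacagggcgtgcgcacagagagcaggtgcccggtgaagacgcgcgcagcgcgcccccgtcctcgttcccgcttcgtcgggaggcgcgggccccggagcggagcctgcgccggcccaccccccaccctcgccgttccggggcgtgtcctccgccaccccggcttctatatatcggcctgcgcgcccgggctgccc
Igfbp6 (chr15:102143936-102144185, plus strand): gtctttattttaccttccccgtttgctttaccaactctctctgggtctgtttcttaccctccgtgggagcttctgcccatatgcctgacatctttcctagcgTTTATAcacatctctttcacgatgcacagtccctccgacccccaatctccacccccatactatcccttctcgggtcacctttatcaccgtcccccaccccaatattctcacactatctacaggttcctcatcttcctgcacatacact
Igfbp7 (chr5:77408046-77408295, minus strand): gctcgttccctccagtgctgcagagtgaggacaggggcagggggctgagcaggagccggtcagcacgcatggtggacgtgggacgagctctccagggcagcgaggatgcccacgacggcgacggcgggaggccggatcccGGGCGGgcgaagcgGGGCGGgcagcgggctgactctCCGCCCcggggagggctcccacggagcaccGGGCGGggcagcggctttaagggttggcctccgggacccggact
Igfbp4 (chr11:99040994-99041243, plus strand): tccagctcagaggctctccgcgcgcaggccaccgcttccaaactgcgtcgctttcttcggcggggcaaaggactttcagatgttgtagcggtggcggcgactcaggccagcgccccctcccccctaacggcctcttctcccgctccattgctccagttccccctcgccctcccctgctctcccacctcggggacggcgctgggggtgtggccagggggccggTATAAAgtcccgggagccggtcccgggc
The window of *Igfbp7* holds 4 GC boxes and no TATAAA. That of *Igfbp4* holds 1 TATAAA and no GC box, that of *Igfbp6* holds 1 TATAAA on the reverse strand, and that of *Igfbp3* holds neither motif. Among 32851 windows of the same length, 12.4% hold TATAAA and 32.7% hold GGGCGG on either strand. *Igfbp3*, *Igfbp6* and *Igfbp7* thus share neither motif in these windows, and a match describes the letters only. Only exact matches were marked, at any position in the window, so close variants are left unmarked.

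The first comparison asks how the IGF genes differ in the condyle of mice with 1 *Dspp* allele. All 9 members were lower in *Dspp*+/- than in WT, with a median log2 ratio of -0.26 on the FPKM + 1 scale, beside 0.06 over all 13026 genes compared, of which 43.7% were lower. None was at least 2-fold lower on that scale, a size that 2.86% of all genes reached, and none was at least 2-fold higher, which 4.88% reached. At 1.5-fold on that scale, 2 of 9 were lower, *Igfbp3* and *Igfbp7*, against 8.95% of all genes, and none was higher by this fold, against 11.5%. Folds of FPKM without the added 1 are wider for low genes, and by them *Igf1* (1.51-fold lower) and *Igfbp2* (1.87-fold lower) were also past 1.5-fold. The counting interval of the fold of *Igfbp2*, with 5 and 8 fragments, ran from 0.138 to 1.86, and those of the other members lay below 1. The share of all genes with such an interval was not computed, so this is not shown to be particular to the members.

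*Igfbp3* was lower by the largest fold among the well-measured members, from 38.9 to 24.1 FPKM, a fold of 0.620 (0.583 to 0.659). *Igfbp7* had a fold of 0.632 (0.612 to 0.654), *Igf1* of 0.663 (0.612 to 0.718) and *Igfbp6* of 0.685 (0.648 to 0.725). These 4 log2 ratios, from -0.67 to -0.50, stood at percentiles 7.16 to 10.9 of all genes compared. *Igfbp5* (0.836), *Igf2r* (0.880), *Igfbp4* (0.877) and *Igf1r* (0.927, interval 0.871 to 0.986) were nearer to WT, at percentiles 21.7 to 34.3. For each of the 9 members the ratio stayed below 0 under all 6 scalings, and that of *Igf1* was -0.31 with a pseudocount of 5 in place of 1.

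In *Dspp*-/- against WT the members went both ways. *Igfbp6* was the lowest relative to WT, from 124 to 61.8 FPKM, a fold of 0.5 (0.469 to 0.532) and a log2 ratio of -0.99, at percentile 1.43 of all genes compared. *Igfbp7* had a fold of 0.676 (0.654 to 0.699) and *Igfbp3* of 0.736 (0.693 to 0.781). *Igf1* was higher than in WT, at 9.11 against 6.96 FPKM, a fold of 1.31 (1.22 to 1.40) at percentile 81.4. *Igfbp5* was 1.06 times WT (1.04 to 1.09), which became lower than WT under housekeeping scaling, and so did *Igf1r*, whose interval (0.968 to 1.09) includes 1. *Igfbp4* (0.866) and *Igf2r* (0.900) were slightly lower than in WT, close to their folds in *Dspp*+/-.

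The median of the 9 log2 ratios in *Dspp*-/- was -0.14, beside 0.01 over all genes, of which 49.3% were lower. On the FPKM + 1 scale no member was at least 2-fold lower, against 1.37% of all genes, and none was at least 2-fold higher, against 4.05%. *Igfbp6* sat at the edge of that threshold. It was 2-fold lower by FPKM without the added 1, and on the FPKM + 1 scale it was past the threshold under median-ratio, upper-quartile and housekeeping scaling. At 1.5-fold it was the 1 member lower, against 8.21% of all genes, and none was higher by this fold, against 8.84%. Both mutants were compared with the same WT library, so an unusual WT value would enter both comparisons.

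**Figure D2:**
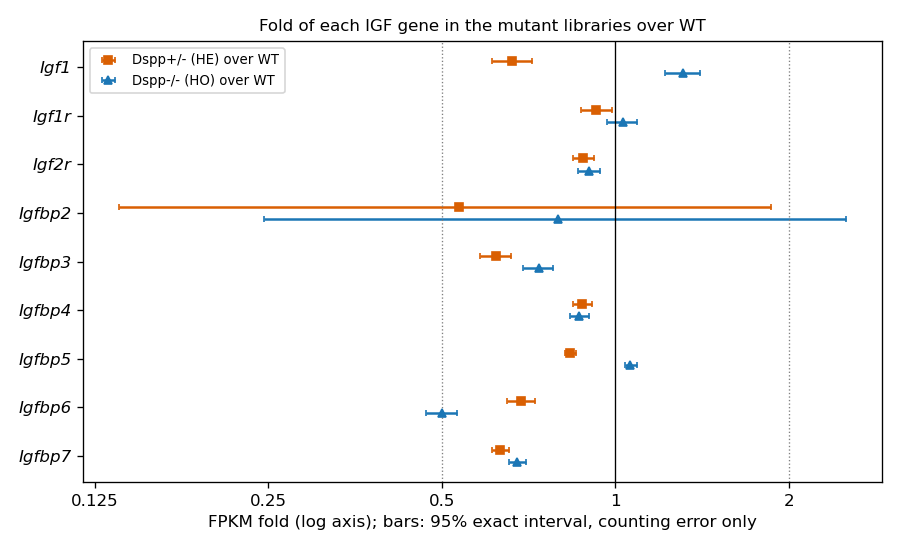
Fold of FPKM over WT (log axis) for each of the 9 genes in *Dspp*+/- (squares) and *Dspp*-/- (triangles), with exact 95% intervals for counting error and dotted lines at 2-fold. The folds of the mutant libraries lie furthest apart for *Igf1*, and both folds of a gene are taken over the same WT library. *Igf1*, *Igfbp5* and *Igf1r* lie below WT in *Dspp*+/- and above it in *Dspp*-/-, where the interval of *Igf1r* includes 1.

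The mutant libraries were then compared with each other, which does not involve the WT library. *Igf1* stood apart most, with 4.61 FPKM in *Dspp*+/- and 9.11 in *Dspp*-/-, a fold of 0.507 (0.470 to 0.546). Its log2 ratio of -0.85 was at percentile 1.33 of all genes compared, and over the 6 scalings it ran from -0.90 to -0.81. With a pseudocount of 5 it was -0.55, which is under 1.5-fold. *Igfbp5* was also lower in *Dspp*+/- than in *Dspp*-/-, by a fold of 0.786 (0.770 to 0.802), and *Igfbp3* by 0.843 (0.790 to 0.899). *Igfbp6* went the other way, with 84.8 against 61.8 FPKM, a fold of 1.37 (1.28 to 1.46) at percentile 91.0. For *Igf2r* (0.978, interval 0.937 to 1.02) and *Igfbp4* (1.01, 0.975 to 1.05) the difference was within counting error. No member differed 2-fold in this comparison on the FPKM + 1 scale, where 0.852% of all genes were at least 2-fold lower and 0.798% at least 2-fold higher, and *Igf1* was the 1 member at least 1.5-fold lower, against 3.39% of all genes, with none higher by this fold, against 4.32%.

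Ratios within a library do not depend on its scaling, and they showed the same separation. The ligand to receptor ratio, *Igf1* over *Igf1r* in FPKM, was 1.20 in the WT library, 0.857 in *Dspp*+/- and 1.52 in *Dspp*-/-. Against WT it was 0.716 times as high in *Dspp*+/- (interval 0.646 to 0.792) and 1.27 times as high in *Dspp*-/- (1.16 to 1.39). Relative to the 6 binding proteins together, *Igf1* made 0.999% of their summed FPKM in the WT library, 0.942% in *Dspp*+/- and 1.76% in *Dspp*-/-. The summed level of the 6 was 696 FPKM in the WT library, 490 in *Dspp*+/- and 517 in *Dspp*-/-. *Igf1* and the binding proteins were thus both lower in *Dspp*+/-, whereas in *Dspp*-/- *Igf1* was higher beside a lower sum.

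The make-up of the binding protein transcripts differed as well. *Igfbp7* made 48.0% of the summed FPKM in the WT library, 43.2% in *Dspp*+/- and 43.7% in *Dspp*-/-. *Igfbp5* made 20.2%, 24.0% and 29.0%, and *Igfbp6* made 17.8%, 17.3% and 12%. *Igfbp4* took 8.44%, 10.5% and 9.85%, and *Igfbp3* 5.58%, 4.92% and 5.53%. The fragments of *Igfbp5* relative to those of the other 5 were 1.18 times WT in *Dspp*+/- (1.15 to 1.22) and 1.5 times WT in *Dspp*-/- (1.45 to 1.54). Those of *Igfbp6* were 0.883 times WT (0.833 to 0.936) and 0.548 times WT (0.514 to 0.585). *Igfbp6* over *Igfbp5*, 0.878 in WT by FPKM, was 0.720 in *Dspp*+/- and 0.413 in *Dspp*-/-.

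**Figure D3:**
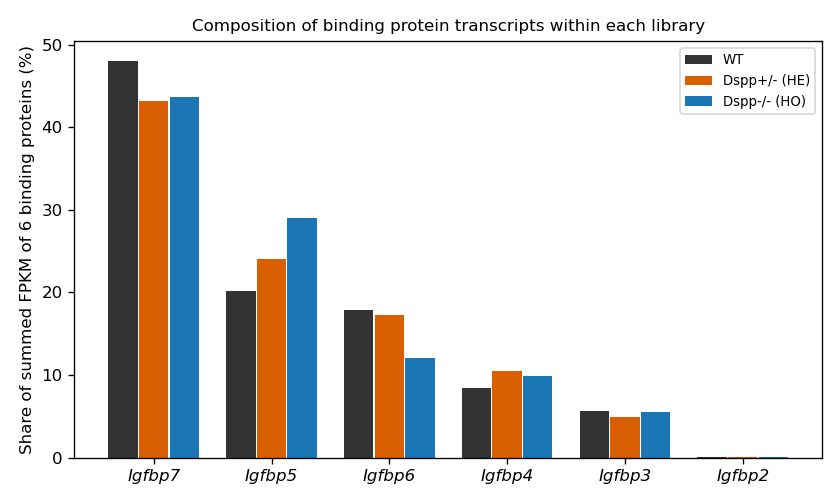
Share of each of 6 binding protein genes in their summed FPKM (%), with a bar for each library. From WT to *Dspp*-/- the share of *Igfbp5* went from 20.2% to 29.0% and that of *Igfbp6* from 17.8% to 12%.

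The directions were checked under other scalings, since composition differed between libraries. Relative to WT, the 5 other scalings multiplied the *Dspp*+/- values by 0.902 to 1.06 and the *Dspp*-/- values by 0.881 to 1.09. *Igf1* kept log2 ratios from -0.63 to -0.44 in *Dspp*+/- and from 0.18 to 0.45 in *Dspp*-/-. *Igfbp6* kept -1.17 to -0.87 in *Dspp*-/-, *Igfbp7* kept -0.75 to -0.45 and *Igfbp3* kept -0.61 to -0.32.

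**Figure D4:**
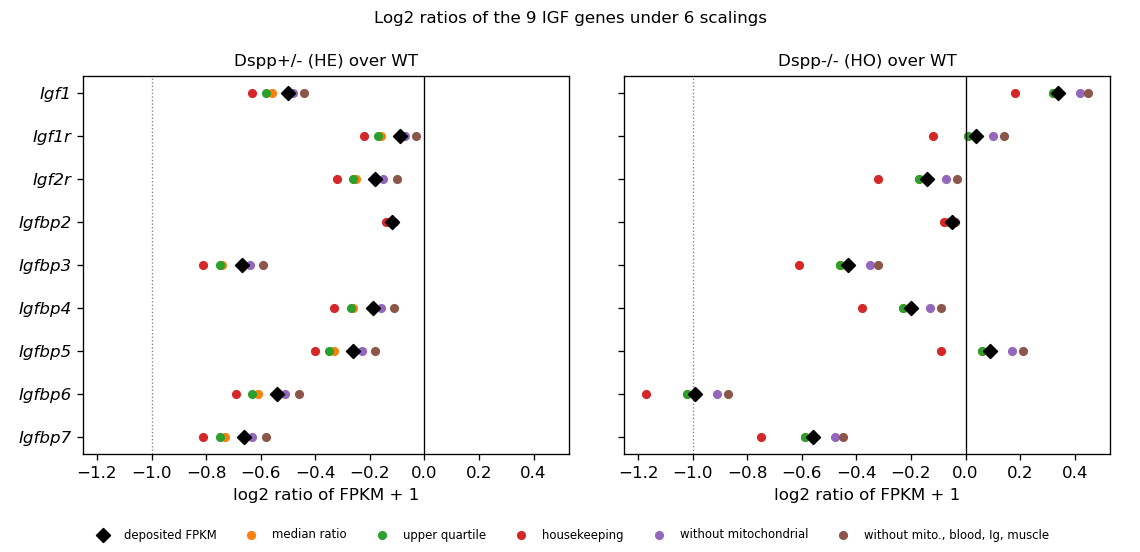
Log2 ratio of FPKM + 1 over WT for the 9 genes under the deposited scaling (diamonds) and 5 others (circles), for *Dspp*+/- and *Dspp*-/-, with a dotted line at 2-fold lower. All points of *Dspp*+/- lie below 0, and in *Dspp*-/- only *Igf1r* and *Igfbp5* have points on both sides of 0.

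Markers of the cells in the condyle moved between the libraries too, and they are given as summed FPKM. The 10 osteoblast genes summed to 15455 FPKM in the WT library, 4244 in *Dspp*+/- and 8490 in *Dspp*-/-, with 10 of 10 lower in each mutant, and the 10 chondrocyte genes to 2610, 1109 and 1263, with *Matn1* at 0 in *Dspp*+/-. The 8 fibroblast and tendon genes summed to 2076, 1271 and 1565 FPKM, with 7 lower than WT in *Dspp*+/- and 6 in *Dspp*-/-. The 6 macrophage genes summed to 170, 142 and 143 FPKM, nearly equal in the mutants. Of them, 3 were lower and 3 higher in *Dspp*+/- than in WT, and likewise 3 and 3 than in *Dspp*-/-. The sums of these 4 lists had the order WT, *Dspp*-/-, *Dspp*+/-, which was also that of *Igf2r*, *Igfbp2*, *Igfbp3* and *Igfbp7*. At the deposited scaling, none of the 10 lists had the order of *Igf1*, *Igf1r* and *Igfbp5* (highest in *Dspp*-/-, lowest in *Dspp*+/-) or that of *Igfbp4* and *Igfbp6* (WT, *Dspp*+/-, *Dspp*-/-). Several of these orders rest on differences within counting error. These are *Igf2r* and *Igfbp4* between the mutants, *Igf1r* between *Dspp*-/- and WT, and *Igfbp2* in every comparison. Under 4 of 6 scalings *Igfbp4* was lower in *Dspp*+/- than in *Dspp*-/-, which is the order of the 4 lists at the deposited scaling. The lists were not put on the other scalings. The endothelial list was at 150, 167 and 159 FPKM, smooth muscle and pericyte at 770, 954 and 720, adipocyte at 103, 168 and 212, and skeletal muscle at 8704, 11880 and 10091 with *Tnnc2* at 0 in WT and *Dspp*-/-. In each mutant, genes of the endothelial list and of the 2 muscle lists went both ways against WT. The neutrophil list was at 589, 2555 and 3454 FPKM and the erythroid list at 830, 3510 and 3346. The part of these cell types in the differences of the IGF genes was not tested.

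Other genes of the pathway were taken from a list of 34, of which 32 are in the table and 28 averaged 1 FPKM or more. On the FPKM + 1 scale, 3 of the 28 were at least 2-fold lower in *Dspp*+/- than in WT and 0 were at least 2-fold higher, beside 2.86% and 4.88% of all genes. In *Dspp*-/-, 1 was lower and 0 were higher by this fold, beside 1.37% and 4.05%. The genes called lower, *Htra1*, *Adam12* and *Stc2*, act outside the cell on the binding proteins or their proteases. *Htra1*, a secreted serine protease that can cut binding proteins, had 205 FPKM in the WT library, 89.2 in *Dspp*+/- and 131 in *Dspp*-/-, with folds of 0.435 (0.422 to 0.449) and 0.640 (0.622 to 0.658). *Adam12*, a metalloprotease that can cut IGFBP3 and IGFBP5, had 16.1, 5.71 and 11.3 FPKM. *Stc2*, an inhibitor of the protease PAPP-A, was lower in both mutants, with 9.03 FPKM in the WT library, 3.68 in *Dspp*+/- and 3.46 in *Dspp*-/-. With a pseudocount of 5, *Stc2* was under 2-fold lower in both mutants and *Adam12* in *Dspp*+/-.

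*Pappa*, the gene of PAPP-A, which cuts IGFBP4, had 5.61 FPKM in the WT library, 3.17 in *Dspp*+/- and 3.95 in *Dspp*-/-, a fold of 0.564 (0.516 to 0.617) and 0.703 (0.646 to 0.766). *Stc1*, another PAPP-A inhibitor, had 1.49, 0.656 and 1.34 FPKM. Its fold in *Dspp*+/- was 0.439 (0.320 to 0.596), over 2-fold lower by FPKM but not on the FPKM + 1 scale, and its level in *Dspp*-/- was within counting error of WT (fold 0.895, 0.694 to 1.16). *Pappa2* (1.08, 1.15 and 1.51 FPKM) and *Adamts1* (5.40, 6.73 and 7.87 FPKM) were above WT in both mutants at the deposited scaling, but *Pappa2* in *Dspp*+/- was below WT under housekeeping scaling. The 9 genes of this extracellular group that averaged 1 FPKM or more included the receptors *Insr* and *Ghr*. The median log2 ratio of the 9 was -0.59 in *Dspp*+/- and -0.09 in *Dspp*-/-, beside 0.06 and 0.01 over all genes compared. Both medians are the values of *Stc1*, which over the pseudocounts and scalings ran from -1.08 to -0.20 and from -0.20 to -0.02. *Igf2*, the other IGF ligand, was low in this adult tissue, with 0.397 FPKM (46 fragments) in the WT library, 0.422 in *Dspp*+/- and 0.291 in *Dspp*-/-. *Igfals*, the liver gene of the serum ternary complex, was also under 1 FPKM, and *Igfbp1* and *Igfbpl1* were not found by symbol in the table.

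**Figure D5:**
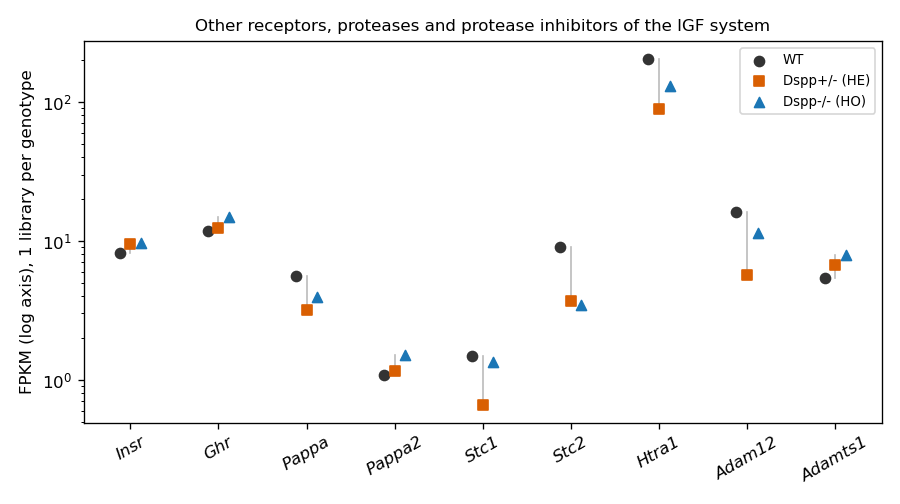
FPKM (log axis) of 9 other extracellular and receptor genes of the IGF system in the 3 libraries, 1 point per library. *Htra1*, *Adam12*, *Stc1* and *Pappa* were lowest in *Dspp*+/- and *Stc2* was low in both mutants, whereas *Insr*, *Ghr*, *Pappa2* and *Adamts1* were above WT at this scaling (for *Ghr* and *Pappa2* in *Dspp*+/- not under every other scaling).

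Other receptors and signalling genes were also measured. *Insr*, the insulin receptor, had 8.24 FPKM in the WT library, 9.55 in *Dspp*+/- and 9.63 in *Dspp*-/-, and *Ghr*, the growth hormone receptor, had 11.7, 12.3 and 14.8 FPKM, although *Ghr* in *Dspp*+/- was below WT under 3 of the 5 other scalings. Of 4 growth hormone signalling genes above the minimum, log2 ratios in *Dspp*+/- ran from -0.50 (*Socs2*) to 0.51 (*Stat5a*). *Cish*, a feedback inhibitor induced by STAT5, was below it at 0.208, 1.33 and 0.392 FPKM, from 27, 201 and 56 fragments, a fold of 6.38 (4.26 to 9.92) in *Dspp*+/- and 1.89 (1.17 to 3.11) in *Dspp*-/-. Of 15 genes from receptor docking to AKT, FOXO and MTOR, none was 2-fold different in any comparison. Of all genes, 0.798% to 4.88% were at least 2-fold lower or higher, depending on comparison and direction. The median log2 ratio of the 15 genes was 0.06 in *Dspp*+/- and -0.11 in *Dspp*-/- against WT. *Irs1*, the main docking protein of IGF1R, had 6.88, 4.6 and 5.87 FPKM, *Grb10*, an adaptor that restrains the receptor, had 19.1, 12.1 and 14.9 FPKM, and *Gab1* had 15.1, 9.27 and 13.0 FPKM. *Akt1* had 43.6, 37.0 and 30.5 FPKM.

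Genes with a pattern like a member's were looked for in the plane of the pair of log2 ratios over WT, across 3 libraries and among genes averaging 10 FPKM or more. For *Igf1*, the nearest of 4036 genes were *Tef*, a clock-output transcription factor (18.7, 12.9 and 24.6 FPKM, distance 0.033), *Aspn*, a matrix proteoglycan of cartilage and periodontal tissue (300, 216 and 378 FPKM, 0.035) and *Mir22hg*, the host gene of a microRNA (0.134). Of these genes, 2 lay within a distance of 0.1 of *Igf1*. For *Igfbp7*, the member with the highest level, the nearest were *Kirrel* (0.006), *Epha2* (0.023) and *Npc2* (0.026), and 35 genes lay within 0.1. With 3 libraries such likeness is a description only.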

How the data were processed

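Total RNA of mandibular condyles was taken at 4 months from the 3 genotypes, and CapitalBio Technology made poly(A)-selected libraries and read them as pairs of 150 bases. The submitters' processing notes list FastQC 0.11.5, HISAT2 2.1.0, StringTie 1.3.3b, DESeq 1.28.0 and the human build hg38, although the gene identifiers are those of mouse. The annotation and filters are not given in the sources used here. The authors deposited 1 value per gene and genotype, whose unit is not named and which was read as FPKM, since FPKM times merged exon length (GENCODE M21, 26652 genes) gave whole fragments within 0.05 for 98.6% or more of genes under 100 fragments in each library. This gave depths of 20241575 (WT), 23613621 (*Dspp*+/-) and 22253158 (*Dspp*-/-) fragments.

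Log2 ratios of FPKM + 1 were set beside those of 13026 genes averaging 1 FPKM or more. Folds of FPKM have Clopper-Pearson 95% intervals from the fragments, and ratios of ratios have exact conditional intervals, with no fold given at or under 3 fragments. Kruskal-Wallis testing, which the study used elsewhere, could not be applied to 1 library per genotype. The steps were tested on simulated data. The members, the pathway list and the 10 marker lists were chosen with earlier results of these data known. Genes named are the members, the pathway list and the 3 genes nearest in pattern to *Igf1* and to the highest member. The values of 1 gene of the pathway list are not reported here. *Xist*, *Polr2b* and single markers listed at 0 were named after their values were seen. Alternatives were 2 pseudocounts, 5 scalings, 2 thresholds, 2 filters and fragment shares. Computation was in Python 3.11.15 with scipy 1.17.1 for the intervals, pandas 2.3.3 and numpy 2.4.6 for tables, and matplotlib 3.10.9 for plots.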

Additional observations from a re-analysis of the deposited data

How the results depend on the processing

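No paired analysis was possible because each genotype has 1 library, and no library could be left out. For the 9 members, 189 log2 ratios were recomputed with another pseudocount or scaling: 136 moved by less than their counting interval, 52 by more with the direction kept or not called, and 1 reversed, that of *Igfbp5* in *Dspp*-/- against WT, which was -0.09 under housekeeping scaling. A reversal was called only where the counting interval of the fold excluded 1. Where it included 1, the sign also changed for *Igf1r* in *Dspp*-/- against WT and for *Igf2r* and *Igfbp4* between the mutants. The number of members at least 2-fold lower on the FPKM + 1 scale was 0 in each comparison. With a pseudocount of 5, the log2 ratio of *Igf1* was -0.31 in *Dspp*+/- against WT and -0.55 between the mutants, beside -0.50 and -0.85. For *Dspp*-/- against WT the number of members at least 2-fold lower was 1 under median-ratio, upper-quartile and housekeeping scaling (*Igfbp6*). The number of members at least 1.5-fold lower was 2 in *Dspp*+/- against WT, 1 in *Dspp*-/- against WT and 1 in *Dspp*+/- against *Dspp*-/-. At 4-fold, no member passed. The median log2 ratio of the members in *Dspp*+/- against WT was -0.54 with a pseudocount of 0.1, -0.33 with median-ratio, -0.35 with upper-quartile, -0.40 with housekeeping scaling and -0.18 without mitochondrial, hemoglobin, immunoglobulin and muscle genes. In *Dspp*-/- against WT it was -0.21 with a pseudocount of 0.1, -0.32 with housekeeping scaling, -0.07 without mitochondrial genes and -0.04 without all 4 groups. Between the mutants it was -0.15 with a pseudocount of 0.1 and -0.16 with upper-quartile scaling. With no filter on low values, the share of all genes at least 2-fold lower was 1.56% in *Dspp*+/- and 0.842% in *Dspp*-/- against WT, and the share higher 2.71% and 2.25%, beside 2.86%, 1.37%, 4.88% and 4.05% with the filter. Shares of fragments are not corrected for length, which is why they differ from shares of FPKM. *Igfbp3* made 6.88% of the fragments of the 6 binding proteins in WT and 5.55% in *Dspp*+/-. In WT, *Dspp*+/- and *Dspp*-/-, the fragment share was 14.7%, 16.7% and 14.5% for *Igfbp4*, 47.8%, 52.0% and 57.8% for *Igfbp5*, 7.78%, 6.93% and 4.42% for *Igfbp6* and 22.8%, 18.8% and 17.5% for *Igfbp7*. Fragments of *Igf1* were 3.90%, 3.36% and 5.80% of those of the 6 genes. The spread between mice is unknown, so a difference beyond counting error may still be within it. *Igfbp2*, at 5 to 8 fragments, is below the depth needed to show a difference of this size.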
